A study of Mus musculus with 7 samples.

Results

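The genes described here encode the Notch pathway: 4 receptors (Notch1, Notch2, Notch3 and Notch4), 3 ligands (Jag1, Jag2 and Dll4) and 3 target transcription factors (Hes1, Hey1 and Heyl). They were taken from the deposited table by symbol, and all 10 of the 10 listed symbols were found among 24421. Of these, 6 were lower and 2 were higher in fibroblasts of mouse mammary tumors than in stromal cells of the normal mammary fat pad. Over all tested genes, 14.2% were lower and 14.3% were higher. The receptor Notch4 and the ligands Dll4 and Jag2 had at most 10 counts in any tumor fibroblast library, while the ligand Jag1 and the target Heyl were higher there.

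The study sequenced the 3' ends of polyadenylated RNA from sorted stromal cells of BALB/c mice in 7 libraries. The pCAF group held 3 libraries of cancer-associated fibroblasts from tumors that followed injection of 100000 4T1-luc cells, a mouse mammary carcinoma line that carries luciferase, into a mammary fat pad of female mice. These cells were negative for Ter119, CD45 and EpCAM and positive for podoplanin (PDPN), and the labels gave the mice an age of 8 weeks. The NMF group held 4 libraries from the fat pad of untreated mice of 12 weeks, sorted with the same negative markers and not on PDPN, so that vessel and other stromal cells could remain in it. The design text nevertheless calls the groups age matched. Tumor and fat pad were also digested with different collagenases. The titles call the replicates biological, but the animals behind each replicate were not named. A p-value here sets the group difference against a spread among libraries that may be partly technical. Under selection, the labels of pCAF replicate 3 gave PDPN negative, against its title and source. This library held 692 Pdpn counts, between 498 in replicate 2 and 1779 in replicate 1, and was kept in pCAF. Total counts per library ran from 1885039 to 4990070, so 1 count was worth 0.187 to 0.563 CPM (the count scaled to the effective library size).

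Libraries pCAF 1 and NMF 4 stood apart from their groups. The Pearson correlation of log2 CPM across genes was 0.974 between pCAF 2 and 3 and at most 0.834 between either of them and pCAF 1. It was 0.961 to 0.965 among NMF 1, 2 and 3 and 0.892 to 0.898 between these and NMF 4. Of 9 fibroblast markers, 5 were higher in pCAF (Col1a1, Col1a2, Col3a1, Lum and Pdpn), Dpt was lower and 3 did not pass (Pdgfra, Dcn and Fap). Only pCAF was sorted on PDPN, so the higher Pdpn level is no check of identity. The summed level of the 9 markers, most of it from the 3 collagens, was 71400.5 to 81255 CPM in pCAF and 25578 to 45038 CPM in NMF. Of 10535 genes tested, 14.3% were called higher and 14.2% lower in pCAF by edgeR's quasi-likelihood test (threshold 0.05 on the adjusted p). For 40.4% the lowest library of one group lay above the highest of the other, with pCAF above in 19.0% and below in 21.4%.

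Notch receptors are single-pass membrane proteins that are activated by ligands of the Jagged and Delta-like families on a neighboring cell. Binding leads to cleavage by ADAM metalloproteases and then by gamma-secretase, and the released intracellular domain enters the nucleus, where it joins the DNA-binding protein RBPJ and Mastermind coactivators to switch on genes of the HES and HEY families. In vessels, Notch1, Notch4, Dll4 and Hey1 are known from endothelial cells, where Dll4 restrains the formation of tip cells, and Notch3 and Heyl are known from pericytes and smooth muscle cells. Notch2 and Jag1 are expressed in many cell types, fibroblasts included.

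Among the receptors, 3 of 4 were lower in pCAF, where 14.2% of all tested genes were, and Notch2 did not pass. Notch4 (mm10 chromosome 17, 34564268 to 34588503, plus strand), a receptor largely restricted to endothelium, had 0, 6 and 5 counts in pCAF replicates 1 to 3 and 344, 409, 298 and 580 counts in NMF replicates 1 to 4. Every pCAF library was below every NMF library, and the level was 2.05 ± 1.80 CPM (SD, n = 3) against 129.7 ± 31.3 CPM (SD, n = 4). The fitted level was 61.9-fold lower (log2 fold change -5.95, SE 0.60, adjusted p = 1.11e-04, edgeR's quasi-likelihood test, Benjamini-Hochberg adjusted over the whole table, as for each adjusted p below).

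Notch3 (chromosome 17, 32120820 to 32166852, minus strand), the receptor of mural cells, had 60, 38 and 43 counts in pCAF and 377, 267, 356 and 756 in NMF. The groups did not overlap, with means of 26.2 ± 6.27 (SD, n = 3) and 131 ± 15.1 CPM (SD, n = 4), and the fold was 5.01 (log2 -2.32, SE 0.28, adjusted p = 2.65e-04). Unlike Notch4, Notch3 was counted in every pCAF library. Notch1 (chromosome 2, 26457903 to 26516663, minus strand) is the receptor with the widest use across tissues. It had 31, 36 and 28 counts in the pCAF libraries against 189, 161, 123 and 378 in NMF, again with no overlap in CPM. It was 3.60-fold lower, with means of 17.7 ± 2.41 and 63.7 ± 13.8 CPM (log2 -1.85, SE 0.31, adjusted p = 0.00172). The 3' end of Notch1 overlaps 2 annotated genes on the opposite strand, whose reads cannot be told apart from its own unless the counting used strand, which is not given in the sources used here.

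Notch2 (chromosome 3, 98013527 to 98150361, plus strand) had 13, 40 and 56 counts in pCAF and 41, 34, 39 and 43 in NMF. Replicate 1 of pCAF lay below all NMF libraries in CPM and the other two lay above all of them, so the groups overlapped. The means were 20.3 ± 12.1 and 12.99 ± 3.42 CPM (log2 0.65, SE 0.50, adjusted p = 0.366). Without pCAF replicate 1 it passed as higher in pCAF (log2 1.06, adjusted p = 0.0364).

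The make-up of the receptor counts differed between the groups along with their sum. Summed over the 4 receptors, the level was 66.1 ± 7.85 CPM in pCAF (SD, n = 3) and 338 ± 38.4 CPM in NMF (SD, n = 4). Reads came from the 3' end of each transcript, so levels of different genes were set side by side in CPM with no division by length. Notch4 made up 38.2 ± 6.07% of the receptor counts in NMF and 2.93 ± 2.61% in pCAF, and Notch2 made up 3.86 ± 1.01% in NMF and 29.4 ± 15.3% in pCAF. The share of Notch3 was 39.2 ± 5.99% in NMF and 40.6 ± 14.8% in pCAF, and that of Notch1 was 18.7 ± 2.74% and 27.0 ± 5.02%. These shares carry no test.

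**Figure D1:**
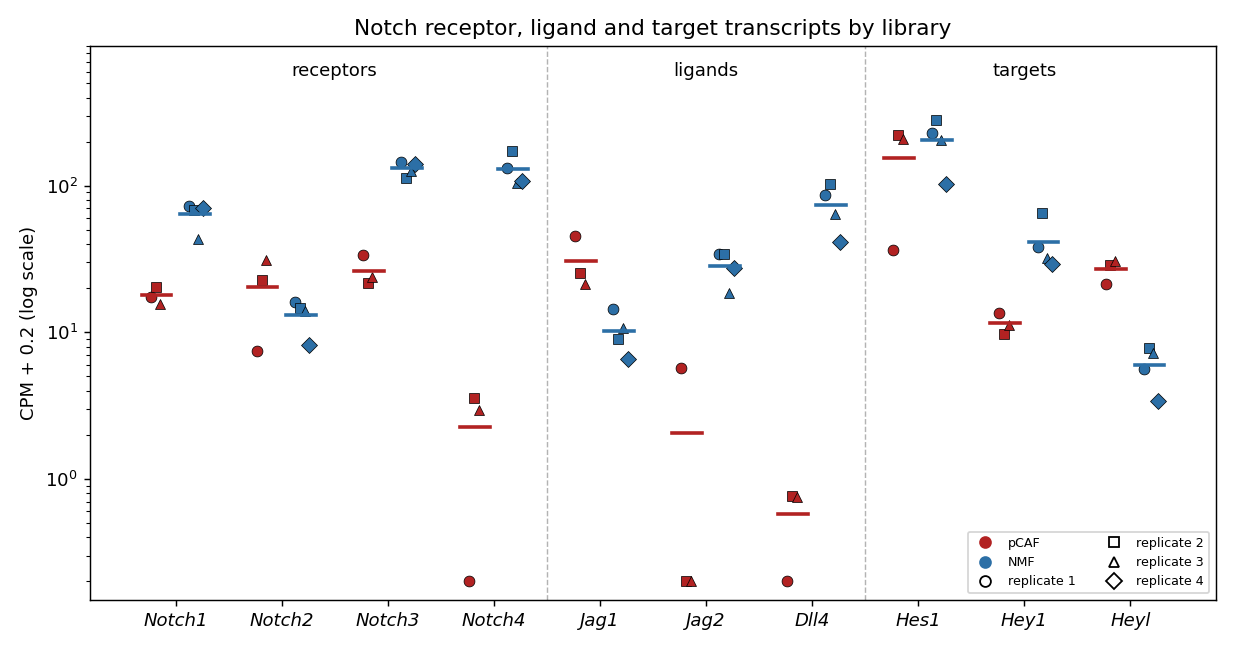
Each point is the level of 1 gene in 1 library, as CPM + 0.2 on a log scale, with pCAF in red, NMF in blue, marker shape by replicate number and a bar at the group mean. Notch4, Dll4 and Jag2 sit at 0 to 5.55 CPM in pCAF, Jag1 and Heyl lie higher in pCAF than in NMF, and the groups overlap for Notch2 and Hes1.

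The ligands moved in opposite directions: Dll4 and Jag2 were lower and Jag1 was higher in pCAF. Dll4 (chromosome 2, 119325784 to 119335962, plus strand), the Delta-like ligand of endothelial cells, had 0, 1 and 1 counts in pCAF against 223, 242, 182 and 222 in NMF. With 2 pCAF counts in all, the NMF level was 178 times that of pCAF, with a 95% interval from 49.1 to 1471 (intervals and floors here cover counting error only). The means were 73.5 ± 26.4 and 0.373 ± 0.323 CPM (adjusted p = 5.65e-05). Without pCAF replicate 1 this ratio was 118 (95% interval from 32.6 to 978). No library of pCAF came near the NMF level of Dll4, and its mean over pCAF was the lowest of the 10 genes.

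Jag2 (chromosome 12, 112907819 to 112929776, minus strand), a Jagged ligand also found on endothelium, had 10, 0 and 0 counts in pCAF and 88, 80, 52 and 146 in NMF. All pCAF counts came from replicate 1, and the groups did not overlap. The fitted level was 14.9-fold lower, with means of 1.85 ± 3.20 and 28.3 ± 7.38 CPM (log2 -3.90, SE 0.90, adjusted p = 0.00987). Without pCAF replicate 1 no count was left, and a floor of 3 counts for the group makes it at least 33.2-fold lower (adjusted p = 1.54e-04).

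Jag1 (chromosome 2, 137081456 to 137116644, minus strand), a Jagged ligand of many cell types, had 81, 45 and 38 counts in pCAF and 37, 21, 30 and 34 in NMF. The lowest pCAF library, at 21.1 CPM, was above the highest NMF library, at 14.3 CPM. Jag1 was 3.06-fold higher, with means of 30.4 ± 12.7 and 10.02 ± 3.33 CPM (log2 1.61, SE 0.42, adjusted p = 0.0161). This call was lost without NMF replicate 2 (adjusted p = 0.0546) and with the replicate number as a block (0.0625), and the adjusted p ran from 0.00256 to 0.0625 over 15 alternatives. Of the counts of the 3 ligands, Jag1 made up 94.8 ± 4.98% in pCAF and 9.14 ± 2.36% in NMF, while Dll4 made up 1.58 ± 1.38% and 64.7 ± 6.89%. The summed ligand level was 32.7 ± 15.6 CPM in pCAF and 112 ± 33.2 CPM in NMF.

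Promoter sequences are shown for the ligand and the receptor with the largest falls, Dll4 and Notch4, and for Notch2, which did not pass. Each run begins 250 bases before the RefSeq start (GRCm38.p6, the assembly called mm10) and is read 5' to 3' on the gene's strand, and bases inside GENCODE exons of the gene were left out. Capitals mark the core of ETS factor motifs, GGAAG on either strand (CTTCC on the other). The ETS family includes ERG and FLI1, which act in endothelium. The windows are chr2:119325534-119325783 on the plus strand for Dll4, chr17:34564045-34564267 on the plus strand for Notch4 and chr3:98013288-98013526 on the plus strand for Notch2.
Dll4: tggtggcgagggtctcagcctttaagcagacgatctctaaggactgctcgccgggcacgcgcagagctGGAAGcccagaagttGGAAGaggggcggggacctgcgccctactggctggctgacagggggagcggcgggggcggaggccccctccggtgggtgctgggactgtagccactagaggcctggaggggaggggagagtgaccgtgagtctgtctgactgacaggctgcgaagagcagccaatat
Notch4: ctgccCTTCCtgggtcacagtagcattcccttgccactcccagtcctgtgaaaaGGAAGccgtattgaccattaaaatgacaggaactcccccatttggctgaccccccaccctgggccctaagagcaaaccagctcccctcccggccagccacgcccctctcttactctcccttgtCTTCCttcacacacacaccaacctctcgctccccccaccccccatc
Notch2: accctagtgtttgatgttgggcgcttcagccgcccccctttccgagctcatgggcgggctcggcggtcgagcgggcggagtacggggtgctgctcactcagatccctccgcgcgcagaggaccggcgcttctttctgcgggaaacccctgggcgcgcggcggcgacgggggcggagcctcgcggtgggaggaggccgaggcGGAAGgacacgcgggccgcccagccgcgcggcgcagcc
These windows hold 2, 3 and 1 matches. The promoter table had windows for 7 of the 10 genes and none for Hes1, Hey1 and Heyl. An ETS core lay in the 250 bases before the start in 3 of the 7, against 64.1% of 32851 windows of the same length over all genes. These 3 are the genes shown, and the windows of Notch1, Notch3, Jag1 and Jag2 held none. The RBPJ core TGGGAA, on either strand, lay in 0 of 7, against 21.6% of all, and the N-box CACNAG, on either strand, which HES proteins bind, in 4 of 7, against 36.7%. The RBPJ and ETS cores can overlap by the letters GGAA. A match is a description of letters and not a bound site.

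The 3 target genes split 3 ways. Heyl (chromosome 4, 123233556 to 123249875, plus strand), a HEY family repressor, had 38, 51 and 55 counts in pCAF and 14, 18, 20 and 17 in NMF. Every pCAF library, from 21.1 to 30.5 CPM, was above every NMF library, from 3.17 to 7.60 CPM. Heyl was 4.66-fold higher, with means of 26.8 ± 5.004 and 5.81 ± 1.99 CPM (log2 2.22, SE 0.42, adjusted p = 0.00321). Its mean over NMF was the lowest of the 10 genes.

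Hey1 (chromosome 3, 8663359 to 8667256, minus strand), a HEY family repressor known from arterial endothelium, went the other way. It had 24, 17 and 20 counts in pCAF and 99, 155, 91 and 155 in NMF, with no overlap in CPM. It was 3.61-fold lower, with means of 11.3 ± 1.88 and 41.2 ± 16.6 CPM (log2 -1.85, SE 0.39, adjusted p = 0.00589). Within a library, which needs no scaling between libraries, there were 1.58, 3.00 and 2.75 Heyl counts for each Hey1 count in pCAF and 0.141, 0.116, 0.220 and 0.110 in NMF. Heyl thus outnumbered Hey1 in each pCAF library and Hey1 outnumbered Heyl in each NMF library.

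Hes1 (chromosome 16, 30064384 to 30067796, plus strand), a HES family repressor with many inputs besides Notch, had the highest mean level of the 10 genes in both groups, although Jag1 was above it in pCAF 1, and Notch3 and Notch4 were above it in NMF 4. It was read 65, 392 and 375 times in pCAF and 591, 666, 580 and 552 times in NMF. In CPM, pCAF 1 was lowest at 36.05 and NMF 4 next at 103, while pCAF 2 and 3, at 221 and 208, lay among the remaining NMF libraries, at 204 to 281. Hes1 did not pass, with means of 155 ± 103 and 204 ± 74.7 CPM (log2 -0.40, SE 0.55, adjusted p = 0.631), and without pCAF replicate 1 the estimate was 0.07 (adjusted p = 0.890).

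**Figure D2:**
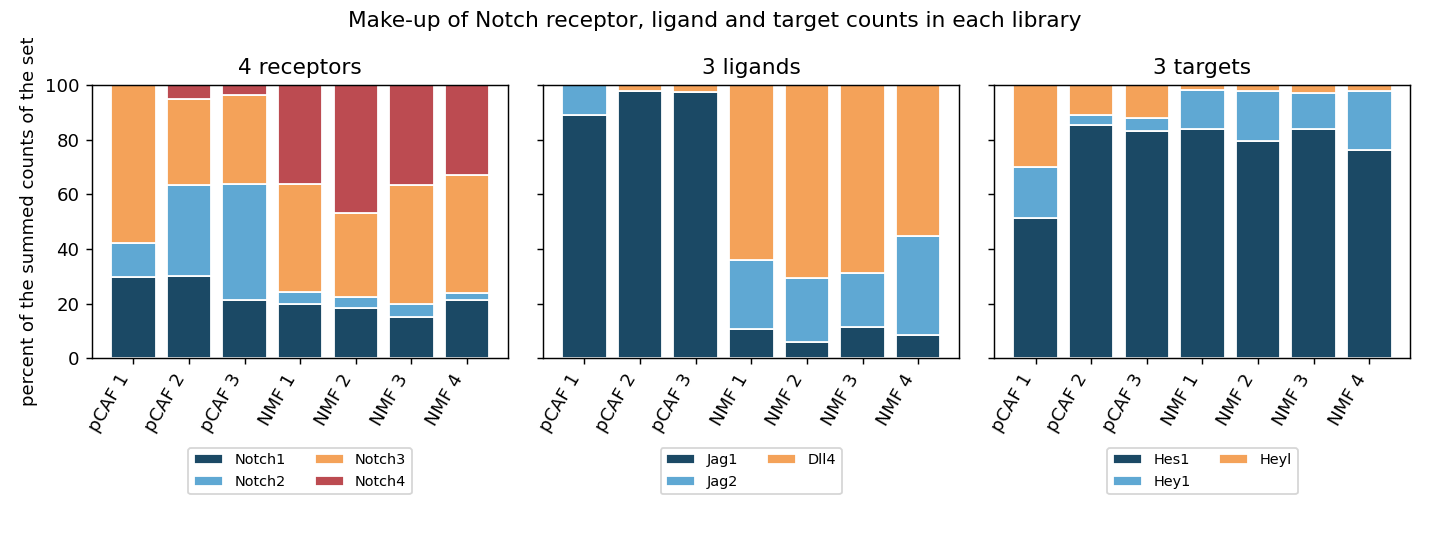
Bars give the share of each gene in the summed counts of the 4 receptors, the 3 ligands and the 3 targets, in percent, for each of the 7 libraries. Jag1 makes up nearly all ligand counts in pCAF and 9.14% on average in NMF, Notch4 makes up 38.2% of receptor counts on average in NMF and 2.93% in pCAF, and Heyl has the larger share of target counts in pCAF.

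In order of mean CPM, the pCAF levels ran Hes1, Jag1, Heyl, Notch3, Notch2, Notch1, Hey1, Notch4, Jag2 and Dll4. In this order only Notch1 and Hey1, and Hey1 and Notch4, were neighbors with separate ranges. In NMF the order was Hes1, Notch3, Notch4, Dll4, Notch1, Hey1, Jag2, Notch2, Jag1 and Heyl. Here the ranges of neighbors were separate only between Notch4 and Dll4 and between Jag2 and Notch2. Both genes that rose, Jag1 and Heyl, stood at the low end of the order in NMF and at ranks 2 and 3 in pCAF.

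Over the 10 genes, the median log2 fold change was -1.85, against -0.02 over all tested genes, and all 10 passed the filter on low counts. The 2 higher genes are 2 of 10 where 14.3% of all tested genes were higher, and the 6 lower genes are 6 of 10 where 14.2% were lower. For 8 of the 10 the groups were apart (2 with pCAF above, 6 with pCAF below), where 40.4% of all tested genes were. The 6 genes that fell did so under each of the 15 alternatives tried, and Heyl rose under each.

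Of the other genes of the pathway, 48 were listed and 35 could be tested. None was higher in pCAF by edgeR's quasi-likelihood test, where 14.3% of all tested genes were, and 6 of 35 were lower, a share near the 14.2% of all tested genes. At an unadjusted p under 0.05, 2 were higher and 10 lower, where 4221 of 10535 tested genes were below this p in either direction. DESeq2's test called 1 higher and 8 lower, where it called 1780 and 1884 of 10535 genes. The limma-voom fit called 0 and 7, where it called 1470 and 1380 of 10535. The median log2 fold change of the 35 was -0.48. Without pCAF replicate 1, 16 were lower and 1 was higher. Over all genes the counts rose as well, to 2187 lower and 2021 higher of 11048 tested.

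**Figure D3:**
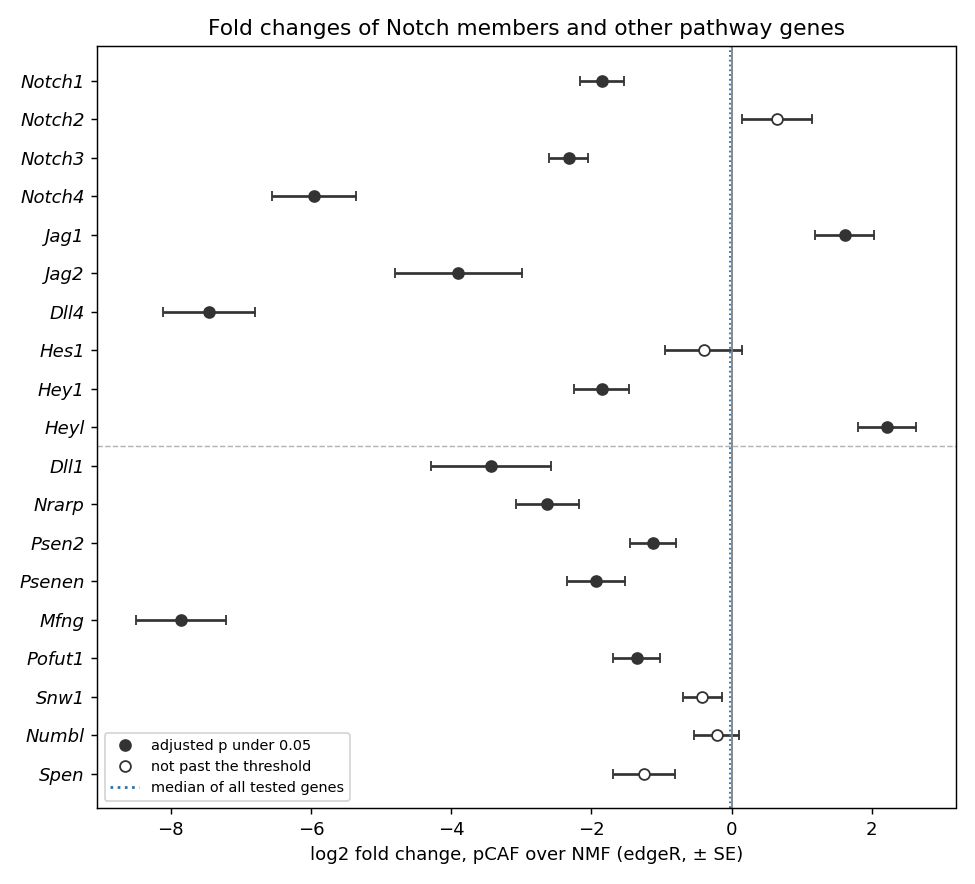
Points give the log2 fold change of pCAF over NMF with its SE, as fitted by edgeR, for the 10 Notch genes above the dashed line and 9 other pathway genes below it. Filled points passed an adjusted p of 0.05, and the dotted line is the median of all tested genes, -0.02. Jag1 and Heyl lie to the right of 0, and Dll4, Notch4 and Mfng lie farthest to the left.

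Mfng, a Fringe glycosyltransferase that adds a sugar to Notch and shifts its response between Delta-like and Jagged ligands, had the largest fall of these. It had 1, 0 and 0 counts in pCAF and 134, 159, 153 and 226 in NMF. The NMF level was 275 times that of pCAF (95% interval from 49.2 to 10878; adjusted p = 4.19e-05). This ratio was 184 without pCAF replicate 2 and 183 without pCAF replicate 3, and without pCAF replicate 1, the one with the count, NMF held at least 60.96 times the level. The related enzymes did not pass: Lfng was at 10.7 ± 11.9 against 15.97 ± 1.47 CPM (adjusted p = 0.541), and Rfng at 53.4 ± 32.6 against 75.6 ± 18.5 CPM (adjusted p = 0.378). Without pCAF replicate 1 both were called lower. Pofut1, which attaches the fucose that Fringe enzymes extend, was 2.55-fold lower (29.2 ± 11.9 against 74.5 ± 9.76 CPM, adjusted p = 0.0136, and 0.0546 with the replicate block).

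Dll1, a Delta-like ligand, was lower, with 0, 4 and 4 counts in pCAF and 62, 50, 47 and 26 in NMF (10.8-fold, adjusted p = 0.0138, and 0.0922 with limma-voom). GENCODE holds 1 near-identical copy of its 3' end, and reads could be split between them. Nrarp, a direct target that damps the Notch complex, was also lower, with 6, 4 and 8 counts in pCAF and 48, 64, 60 and 92 in NMF. Its level was 3.34 ± 1.09 against 20.97 ± 4.36 CPM (6.19-fold, adjusted p = 0.00187), although its 3' end overlaps a gene on the opposite strand. Nrarp and Hey1 thus moved together, against Heyl. Hes5, another classical target, had no count in any library.

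Among the cleavage enzymes 2 of 9 tested were lower, where 14.2% of all tested genes were, and so few genes allow no statement on the group. Psenen, a gamma-secretase subunit, was 3.82-fold lower (7.81 ± 3.48 against 29.999 ± 4.27 CPM, adjusted p = 0.00607), with 2 near-identical copies of its 3' end in the annotation. Psen2, one of a pair of catalytic presenilins, was 2.18-fold lower (28.1 ± 10.9 against 61.4 ± 7.07 CPM, adjusted p = 0.0279). Psen2 no longer passed without pCAF replicate 3 (adjusted p = 0.0651), without NMF replicate 1, 2 or 3 (0.0750, 0.0645 and 0.0618) and with the replicate block (0.0661). In the transcription complex none of 7 passed. Rbpj, the DNA-binding partner of all Notch receptors, was at 29.1 ± 4.25 against 45.5 ± 14.05 CPM (adjusted p = 0.168).

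Among the most abundant genes that did not pass were Snw1, Numbl and Spen. Snw1, a coactivator of the complex, was at 131 ± 46.2 against 174 ± 22.9 CPM (adjusted p = 0.307), with a 3' end that overlaps Slirp on the other strand. Numbl, a homolog of the Notch inhibitor Numb, was at 109 ± 41.8 against 126 ± 27.2 CPM (adjusted p = 0.663). Spen, a corepressor that binds RBPJ, was at 60.03 ± 46.4 against 142 ± 22.9 CPM (adjusted p = 0.0605). Without pCAF replicate 1, Snw1 and Spen were lower (adjusted p = 0.0216 and 3.35e-04), and Spen was also called lower with DESeq2's test (0.0335), limma-voom (0.0238), library totals (0.0202) and no filter (0.0396). The 3' end of Spen overlaps Zbtb17 on the other strand.

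Markers of vessel cells moved with several of these genes. Of 20 blood endothelial markers all 20 were lower in pCAF, where 14.2% of all tested genes were, with a median log2 fold change of -5.78. Their summed level was 223 to 432 CPM in pCAF and 3567 to 5837 CPM in NMF. Pecam1, an adhesion molecule of endothelium, had 0, 4 and 4 counts in pCAF and 1110, 934, 785 and 1615 in NMF, and Sox17 had none in pCAF. In pCAF, 79.6 to 86.1% of the summed level came from Eng, Ecscr, Kdr and Plvap, against 30.4 to 42.3% in NMF (4 genes chosen after their values were seen). In bulk samples, fewer cells of a type and less RNA per cell cannot be told apart. The part of endothelial cells in the falls of Notch4, Dll4, Jag2, Notch1, Notch3 and Hey1 was not tested.

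Endothelial markers did not fall alike. Among those with over 3 counts in pCAF, the fitted log2 fold changes ran from -7.83 for Pecam1 to -0.87 for Ecscr, with Kdr at -2.96 and Eng at -1.73. Those of Notch4, Jag2, Notch3, Hey1 and Notch1, from -5.95 to -1.85, lay within this range. The pCAF 1 library had 0 Pecam1, Cdh5, Notch4 and Dll4 counts, but 421 Eng, 160 Ecscr and 60 Plvap counts and the highest endothelial sum of its group, at 432 CPM against 278 and 223. Per 1000 CPM of summed endothelial markers, the spread over the 4 NMF libraries from lowest to highest was narrower than in CPM alone for 7 of the 10 genes, from 1.14-fold against 1.65-fold for Notch4 to 2.32-fold against 2.73-fold for Hes1. It was wider for Notch3 (1.82-fold against 1.29-fold), Heyl (2.60 against 2.39) and Notch2 (2.01 against 1.97). The share of all tested genes that narrowed was not computed, so 7 of 10 cannot be read as a trait of the Notch genes. Between the groups this scale is not the same: Eng, Ecscr, Kdr and Plvap gave 79.6 to 86.1% of the sum in pCAF and 30.4 to 42.3% in NMF. A value on it is therefore no level per endothelial cell. On this scale Notch4 stood at 25.9 to 29.6 in NMF and 0 to 12.4 in pCAF, and Dll4 at 9.91 to 17.96 and 0 to 2.49. Notch3 stood at 19.3 to 35.1 in NMF and 76.9 to 107 in pCAF, Notch1 at 11.6 to 16.9 and 39.8 to 72.9, and Hey1 at 6.92 to 11.2 and 30.8 to 49.8. Jag2 stood at 5.13 to 6.77 in NMF, at 12.8 in pCAF 1 and at 0 in pCAF 2 and 3.

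**Figure D4:**
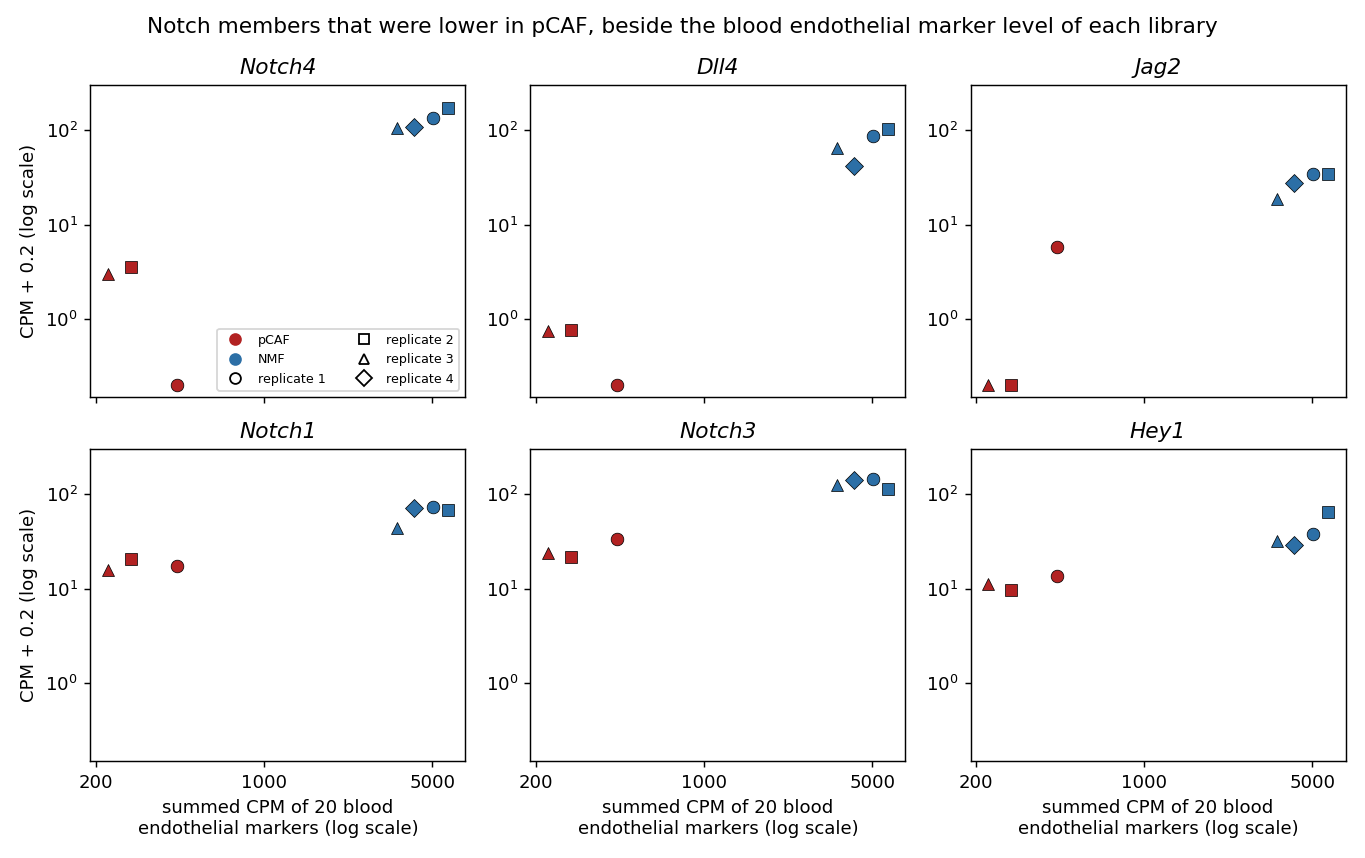
Each panel plots 1 gene that was lower in pCAF, as CPM + 0.2, against the summed CPM of 20 blood endothelial markers in the same library, both on log scales, with pCAF in red and NMF in blue. The pCAF libraries lie at 223 to 432 CPM of markers and the NMF libraries at 3567 to 5837, and Notch1, Notch3 and Hey1 keep higher levels in pCAF than Notch4, Dll4 and Jag2.

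Mural cell markers did not move as 1 block. Of 9 pericyte markers, Rgs5, Mcam and Higd1b were lower, Ndufa4l2 was higher and 5 did not pass, and the summed level was 555 to 613 CPM in pCAF and 394 to 586 CPM in NMF. Rgs5, a signaling regulator used to define pericytes, had 0, 0 and 2 counts in pCAF and 482, 278, 196 and 426 in NMF, and Higd1b had none in pCAF. Other markers of the list were well counted in pCAF, with 1631 Pdgfrb, 676 Ndufa4l2, 465 Kcnj8 and 305 Cspg4 counts over the group, beside 141 Notch3 counts. Most of the summed level in pCAF came from Pdgfrb (165, 405 and 340 CPM in replicates 1 to 3) and Ndufa4l2 (227, 72.1 and 76.5 CPM). With Rgs5 and Higd1b nearly absent, this sum does not give the pericyte content of pCAF. The part of pericytes in the fall of Notch3 was not tested. Of 6 smooth muscle markers 4 were higher and none was lower, where 14.3% and 14.2% of all tested genes were. Among the higher were Acta2 and Tagln, which myofibroblasts also express. The sums were 1371 to 1768 CPM in pCAF, of which Tagln alone held 887, 985 and 1157 CPM in replicates 1 to 3, and 237 to 435 CPM in NMF. Between the groups these sums moved with Heyl and Jag1. Within NMF the sum was highest in replicate 4, where Heyl and Jag1 were lowest. In that library Myh11, Des, Tagln and Smtn were at their highest in NMF, and Acta2 and Cnn1 at their lowest. Within pCAF the sum was highest in replicate 3, where Jag1 was lowest and Heyl highest. The part of smooth muscle cells or myofibroblasts in the 2 rises was not tested.

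Of the other lists, arterial and tip cell genes had 2 of 4 tested members lower (Gja4 and Esm1) and 1 higher (Apln). Lymphatic endothelial markers had 1 of 3 tested lower (Flt4) and 1 higher (Mmrn1), with sums of 23.3 to 46.8 CPM in pCAF and 32.4 to 78.8 CPM in NMF. Schwann cell markers had 4 of 5 lower, and Ncam1 higher. Adipocyte markers had 4 of 4 tested lower, epithelial markers 3 of 6 and leukocyte markers 2 of 4. Beside these counts, 14.2% of all tested genes were lower and 14.3% higher. Epcam, on which both sorts were negative, was at 2.05 CPM in pCAF and 15.3 CPM in NMF.

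Genes whose profile over the 7 libraries was most like that of 4 members were found by the root mean squared difference of log2 CPM, each gene centered on its own mean, among the 6475 tested genes that averaged 20 CPM or more. For Dll4 these were Sox18, an endothelial transcription factor (difference 0.26), Cracr2b (0.27) and Ccm2l (0.28). For Notch1 they were Ifi35 (0.15), Cry1 (0.17) and Trim47 (0.17), and for Notch3 they were Rcan2 (0.15), Coro2b (0.18) and Oplah (0.19). For Jag1 they were Gtf2ird1 (0.14), B2m, the light chain of MHC class I (0.17), and Ubtd1 (0.18). The libraries form 2 groups, so a similar group difference is enough to bring genes together on this measure.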

How the data were processed

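Polyadenylated RNA was sequenced from its 3' ends, per the labels. The deposited table holds raw counts per gene symbol, and the submitters' processing notes name bcl2fastq, STAR 2.4.2a, HTSeq and mm10 without their roles. Annotation, strandedness, multi-mapping and molecular identifiers are not given in the sources used here. Samples were grouped by title.

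The two-sided comparison used edgeR 4.0.16 (R 4.3.3): low genes were removed by filterByExpr, TMM gave the scaling, and robust quasi-likelihood F tests were adjusted over 10535 genes by Benjamini and Hochberg's method. The method was also run on counts simulated from the spread of these data with random changes in both directions, and its outcome is not reported here. The simulation held no library that stood apart from its group. CPM use the effective library sizes, and log2 CPM a prior count of 2. Floors are 3 counts over a group, and counting intervals are exact binomial. Alternatives used DESeq2 1.42.0 and limma 3.58.1. Positions are from GENCODE M21, and 3' ends (300.0 bases) were compared with blastn 2.17.0, counting matches of at least 80 bases at 95% identity. Promoters are from RefSeq.

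The members and lists were chosen with earlier results of these data known. All 10 members were named, with every pathway gene past the threshold and the 4 most abundant that did not pass, of which 1 is not reported here; Lfng, Rfng, Rbpj, Hes5 and some marker genes were named after their values were seen.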

Additional observations from a re-analysis of the deposited data

Results flagged for a closer look

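Among the 4 NMF libraries, values of each of the 10 genes were screened for a library far from the rest, as CPM and as CPM per 1000 CPM of summed blood endothelial markers. Of these 20 screens 2 picked out a library, and chance alone picks out about 1 in 20. Notch1 in NMF replicate 3 stood at 43.3 CPM, with the other NMF libraries at 67.98 to 73.0 CPM. Dll4 in NMF replicate 4 stood at 9.91 CPM per 1000 CPM of endothelial markers, with the others at 17.2 to 17.96.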

How the results depend on the processing

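The 10 Notch genes kept their calls in 146 of 150 combinations of gene and alternative. The count of genes higher among the 10 was 1 with the replicate block and 1 (without NMF replicate 2) to 3 (without pCAF replicate 1, which added Notch2) with a library left out, and the count lower was 6 throughout. Other pathway genes called higher numbered 1 with DESeq2's test (Aak1), 1 with no filter (Neurl1a), 3 without both pCAF replicate 1 and NMF replicate 4, and 0 to 1 with a library left out. Those called lower numbered 18 without both libraries and 5 to 16 with a library left out. Over all genes, 1503 were higher and 1491 lower; without both libraries 2802 and 2913 were, and with the replicate block 978 were higher. With a library left out, 1016 to 2021 were higher and 979 to 2187 lower. The labels do not say whether replicate numbers pair the groups. The correlations of deviations of same-numbered libraries were -0.09, 0.08 and -0.01, and no pCAF library correlated best with its own number. These values cannot decide on a pairing, because pCAF 1 and NMF 4 stood apart and so weigh on deviations within such small groups. With the replicate block Jag1, Psen2 and Pofut1 were lost. With library totals as the scaling, all genes had a median log2 fold change of -0.26 and 37.1% of called genes were higher, against 50.2%. At 0.554 CPM or more per count, pCAF levels of Dll4, Mfng and Jag2 rest on 1 to 10 counts. The cause of these changes was not tested.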

Other observations

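The libraries that stood apart did so unevenly over the Notch genes. Against the mean of pCAF 2 and 3, the log2 CPM of pCAF 1 differed by -2.55 for Hes1, -2.34 for Notch4 and -1.77 for Notch2, by 0.94 for Jag1 and 3.06 for Jag2, and by -0.04 for Notch1, with a median of -0.16 over all tested genes. Against the mean of NMF 1 to 3, NMF 4 differed by -1.19 for Hes1, -0.98 for Dll4, -0.91 for Heyl and -0.73 for Jag1, and by 0.23 for Notch1 and 0.15 for Notch3, with a median of 0.00 over all tested genes. Hes1, Notch2, Notch4, Dll4 and Heyl were below the mean of the rest of their group in both libraries. Notch4 in NMF 4, at 108 CPM, was still above NMF 3, at 105 CPM. Dll4 had 0 counts in pCAF 1 against 1 and 1 in pCAF 2 and 3, too few to set the libraries apart.

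Neurl1a, a ubiquitin ligase that acts on Notch ligands, did not pass the filter on low counts and was not tested with the others. It had 6, 19 and 22 counts in pCAF and 3, 2, 2 and 12 in NMF, at 8.74 ± 4.75 against 1.24 ± 0.70 CPM, and was named after its values were seen. Aak1, a kinase of Numb and of endocytosis, was at 90.2 ± 11.9 against 56.9 ± 7.39 CPM (edgeR, adjusted p = 0.0644), with no overlap between the groups.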
